A study of Homo sapiens with 4 samples.

Results

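The library labelled agrimoniin treatment was compared with the library labelled control, and all barcodes of both were used: 202 in control and 297 in agrimoniin, 499 of the 1056 barcodes in the 4 libraries of the series. Both came from tumours that the human pancreatic cancer line PANC-1 had formed under the skin of nude mice. The control mice received the carrier and the other mice agrimoniin, with no dose, time or mouse age in the labels. The series also holds an erlotinib library and a library of agrimoniin with erlotinib (the combination), and the design text writes cyranin where the sample label says erlotinib. Each group is 1 library, and the labels do not say how many mice it came from. Each barcode was split into a human part (reads on human genes) and a mouse part (reads on mouse genes). Parts under 500 UMIs (unique molecular identifiers, 1 per captured RNA), under 250 genes or above 25% mitochondrial UMIs were left out. What remained was 193 and 283 human parts and 202 and 297 mouse parts in control and agrimoniin, in that order.

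Agrimoniin is an ellagitannin, a large polyphenol of agrimony, and erlotinib inhibits the tyrosine kinase of the epidermal growth factor receptor (EGFR). PANC-1 cells have a partly mesenchymal character. In such a xenograft the tumour cells are human, whereas fibroblasts, macrophages and vessels come from the host. Nude mice lack a thymus and so most T cells, while macrophages and natural killer cells remain. The title of the series concerns tumour growth, the tumour microenvironment and lactic acid, and the groups of genes below were chosen to cover them.

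The 2 libraries held 3656549 and 5133188 UMIs in control and agrimoniin, of which 68.5% and 73.9% were human. The median human part had 11586 and 12653 UMIs and the median mouse part 4836.5 and 3773. Every barcode held reads of both species, 28.2% to 89.9% human in control and 32.2% to 92.2% in agrimoniin, with at least 2086 mouse UMIs in each agrimoniin barcode and 2590 in each control barcode, so parts cannot be taken for single cells. No barcode was shared between libraries. The barcodes had 27 bases, which is not the layout of the kit named in the labels, and the sources used here do not say how they were called. Summed over the 14 markers of PANC-1 identity, the human parts held 10528 CPM (counts per 1000000 UMIs of that species) in control and 11071 CPM in agrimoniin, with 1 marker at 0 in each. The 12 human stromal and immune markers summed to 13.6 and 9.21 CPM, with 5 and 8 at 0. With 1 library a side there is no replicate and no test: intervals are exact 95% intervals of the ratio of 2 counts and cover counting error only. In these sums, fewer cells of a type and less RNA per cell cannot be told apart.

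A gene was called higher or lower in agrimoniin when its mean level was at least 20 CPM, one level exceeded the other by at least 25% and the interval left out 1. Log2 ratios were computed after adding 10 CPM to both levels, which makes them smaller for low genes. Among 7160 human genes, 512 were called higher (7.15%) and 360 lower (5.03%) in agrimoniin. Scaling by the median ratio turned this split to 400 higher and 450 lower, so the balance of directions depended on the scaling. The log2 ratios of these genes had an SD of 0.204, where counting alone gives 0.134. Agrimoniin was the highest of the 4 libraries for 341 of the 512 genes, and control was the lowest for 441. For the 360 genes called lower, agrimoniin was the lowest for 213 and control the highest for 308. The calls themselves set agrimoniin and control apart, which partly fixes these counts. They are therefore no support from the other libraries. The comparisons of erlotinib and of the combination share this control, so their levels are given side by side without a comparison of the differences.

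Promoter stretches are shown for the gene with the lowest ratio and for MCM6, MCM3 and PCNA. These replication genes were picked because they were called higher and hold an E2F match. Heat-shock factor and E2F, which act on these groups of genes, are known by short DNA motifs. The stretches are upstream of the annotated genes, from RefSeq on GRCh38.p14, written 5′ to 3′ on the strand of the gene, with motif matches in capitals. The HSPA6 stretch is chr1:161524446-161524539 (plus strand), and its heat-shock element starts 74 bases before the RefSeq start. The MCM6 stretch is chr2:135876444-135876615 (minus strand), with E2F matches that start 152 and 90 bases before the start. The MCM3 stretch is chr6:52284882-52284936 (minus strand), with a match that starts 174 bases before the RefSeq start. The PCNA stretch is chr20:5126627-5126701 (minus strand), with a match that starts 59 bases before the RefSeq start. Bases inside the GENCODE 29 gene were left out, so the MCM3 and PCNA stretches end short of the RefSeq start. Their matches therefore lie closer to the printed end than these distances.
HSPA6: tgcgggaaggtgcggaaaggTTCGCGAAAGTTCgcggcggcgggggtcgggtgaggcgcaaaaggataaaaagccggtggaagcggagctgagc
MCM6: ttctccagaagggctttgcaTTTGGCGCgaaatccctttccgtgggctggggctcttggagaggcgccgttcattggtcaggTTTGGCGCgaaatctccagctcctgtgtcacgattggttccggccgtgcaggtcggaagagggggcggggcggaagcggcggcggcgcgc
MCM3: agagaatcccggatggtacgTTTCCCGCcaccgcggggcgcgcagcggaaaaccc
PCNA: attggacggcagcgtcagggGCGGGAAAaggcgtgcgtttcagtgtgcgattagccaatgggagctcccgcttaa
The heat-shock element was searched as TTCNNGAANNTTC on both strands of the 250 bases before each start. It was found in 0.441% of 35116 promoters and in 7 of 24 heat-shock chaperone genes (29.2%). These were CHORDC1, HSP90AA1, HSP90AB1, HSPA6, HSPA8, HSPD1 and SERPINH1. The E2F motif was searched as TTTGGCGC or TTTCCCGC on both strands, and was found in 1.93% of all promoters, in 5 of 13 genes of the replicative helicase (38.5%) and in 13 of 32 S phase genes (40.6%). Of the 5 helicase genes with the motif, MCM3 and MCM6 were called higher, and CDT1, GINS2 and MCM7 were not called. Of the 13 S phase genes with it, MCM6, PCNA and TYMS were called higher and the others were not called. A listed gene was counted when any of its promoters held a match, whereas the share over all promoters counts each promoter. The list shares and the share over all promoters are therefore in unlike units. A match is a description of the sequence and not a measured binding site.

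Heat-shock chaperones, which keep proteins folded and are induced by protein damage, were called lower more often than higher in the human parts of the agrimoniin library. Of 23 genes tested, 7 were called lower and 0 higher, against 5.03% and 7.15% of all human genes. The median log2 ratio of the list was -0.19, against 0.03 over all genes, and 19 of the 23 members had a ratio below 0. HSPA6, a strictly inducible member of the HSP70 family (ENSG00000173110, chr1:161524540-161526910, GENCODE 29 on GRCh38), held 95, 21.9, 101 and 15.1 CPM in the control, agrimoniin, erlotinib and combination libraries. It was thus 4.33-fold lower in agrimoniin than in control (interval 3.35 to 5.65), and the 2 libraries with agrimoniin were the low ones. HSPA6 has a near-identical neighbour, HSPA7, so its counts depend on how reads were divided between them. HSPA1A, the main stress-inducible HSP70, was at 3533 CPM under control, 2467 under agrimoniin, 4343 under erlotinib and 2705 under the combination. Its near-identical copy HSPA1B was 1.28-fold lower in agrimoniin (interval 1.23 to 1.33). HSP90AA1, the inducible HSP90, held 2112 and 1607 CPM in control and agrimoniin. DNAJB1 and DNAJB4, co-chaperones of HSP70, held 446 and 344 CPM and 167 and 125 CPM. ZFAND2A, a heat-shock and arsenite-inducible regulator of the proteasome, stood at 93.8 CPM against 60.2 with agrimoniin, 60.1 with erlotinib and 29.3 with both drugs. Not every member shared this direction: HSPA8 held 1089 and 1199 CPM, and SERPINH1, the collagen chaperone, 156 and 183 CPM, both short of a call. Of the 7 genes with the motif, HSPA6 and HSP90AA1 were called lower, while HSPA8 and SERPINH1 had log2 ratios of 0.14 and 0.22.

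**Figure D1:**
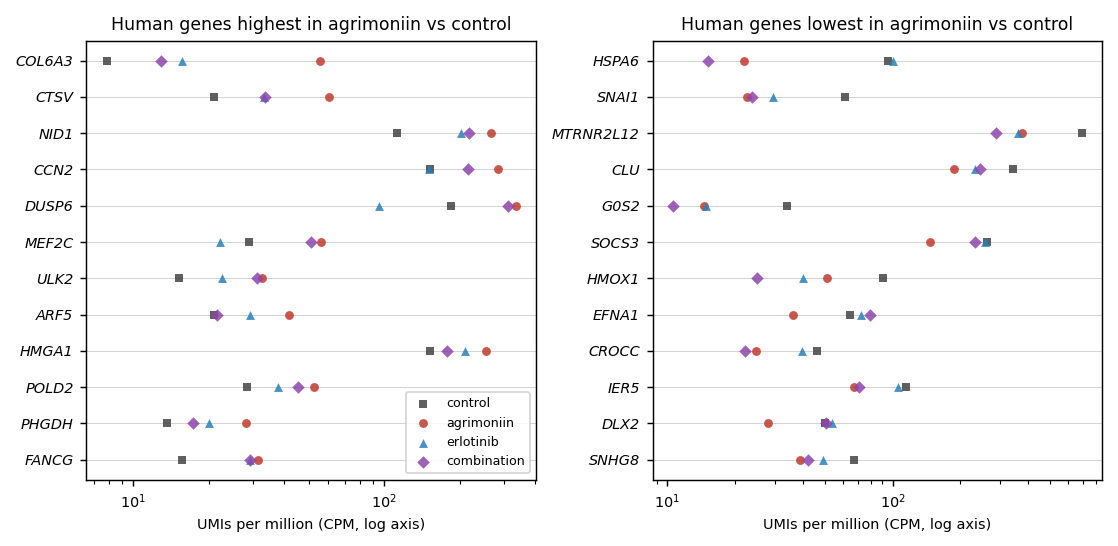
Levels (CPM, log axis) of the human genes at both ends of the ratio of agrimoniin to control, 12 at each end, with 1 symbol per library for control, agrimoniin, erlotinib and the combination. HSPA6 stands at 95 and 101 CPM in control and erlotinib and at 21.9 and 15.1 CPM in agrimoniin and the combination.

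Immediate early genes, which cells switch on within minutes of a stimulus, were called lower more often than higher in the human parts. Of 20 tested, 5 were called lower and 1 higher, against 5.03% and 7.15% of all human genes. The median log2 ratio was -0.16, and 19 of 24 measured members were below 0. ZFP36, which degrades cytokine mRNAs, held 7688, 5913, 8645 and 7541 CPM in the control, agrimoniin, erlotinib and combination libraries. IER5, a stress-induced regulator of heat-shock factor, was at 114 CPM under control, 67.7 under agrimoniin, 105 under erlotinib and 70.8 under the combination. For IER5 the 2 libraries with agrimoniin were again the low ones. GADD45B, a stress sensor, held 235 and 148 CPM, and IER3, an inhibitor of apoptosis, 262 and 188 CPM. The best-known members were short of a call: FOS held 1297 and 1220 CPM, EGR1 1168 and 1140 CPM and JUNB 552 and 484 CPM. The 1 member called higher was KLF2, a zinc-finger transcription factor, at 264 CPM in control and 338 with agrimoniin.

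SOCS3, a feedback gene of cytokine signalling, and SNAI1, an epithelial-mesenchymal regulator, were among the 12 human genes with the lowest ratios. SOCS3, an inhibitor of JAK-STAT signalling (ENSG00000184557, chr17:78356778-78360077), stood at 263 CPM against 147 with agrimoniin, 258 with erlotinib and 233 with both drugs. It was 1.8-fold lower in agrimoniin (interval 1.60 to 2.02), and the other 3 libraries lay close together. In the list of 8 JAK-STAT feedback genes, SOCS3, BCL3 (57.8 and 39.0 CPM) and PIM1 (65.3 and 50.7 CPM) were called lower and none higher. Over all human genes, 5.03% were called lower and 7.15% higher. SNAI1, a transcription factor that represses E-cadherin (ENSG00000124216, chr20:49982999-49988886), held 61.6, 22.5, 29.4 and 23.8 CPM in the control, agrimoniin, erlotinib and combination libraries. All 3 treated libraries were below control, and SNAI1 was 2.74-fold lower in agrimoniin (interval 2.08 to 3.62). Of 12 mesenchymal genes 2 were called each way, and of 8 epithelial genes 0 were called. HMOX1, which degrades heme and is an NRF2 target, held 90.9 CPM in control and 50.9 in agrimoniin, with 40.3 in erlotinib and 25.1 in the combination. It was the 1 gene called among 11 NRF2 targets, whose median log2 ratio was 0.05. CLU, a secreted chaperone, held 342 and 187 CPM, and EFNA1, a ligand of Eph receptors, 64.9 and 36.0 CPM. EFNA1 was not called among the barcodes whose mouse part was fibroblast-like, where its log2 ratio was -0.05, nor below 10% mitochondrial UMIs, where it was -0.26. DLX2, a homeobox factor, held 50.4 and 27.9 CPM and lost its call below 10% mitochondrial UMIs, with a log2 ratio of -0.32. CROCC, a ciliary rootlet protein, held 46.3 and 24.7 CPM, and its log2 ratio was 0.03 among barcodes with at least 75% human UMIs. The others with the lowest ratios were G0S2, an inhibitor of fat breakdown (33.9 and 14.6 CPM), the RNA host gene SNHG8 (67.8 and 39.0 CPM) and MTRNR2L12, a nuclear copy of a mitochondrial ribosomal RNA whose counts are uncertain (693 and 374 CPM).

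In the ERK pathway, which runs downstream of EGFR, 3 of 15 output and feedback genes were called higher and 1 lower, and EGFR was not called. The shares of all human genes called higher and lower were 7.15% and 5.03%. The median log2 ratio of the list was 0.06, against 0.03 over all genes. DUSP6, the phosphatase that switches off ERK (ENSG00000139318, chr12:89347232-89353271), was at 186 CPM under control, 334 under agrimoniin, 95.1 under erlotinib and 312 under the combination. It was 1.8 times as high in agrimoniin as in control (interval 1.62 to 2.01), and erlotinib was the lowest library. SPRY1, an inhibitor of receptor signalling, stood at 23.5 CPM against 39.0 with agrimoniin, 19.6 with erlotinib and 33.4 with both drugs. ETV5, an ERK-driven transcription factor, held 68.6 and 94.0 CPM. EGFR itself held 169 and 160 CPM, a ratio of 0.95 (interval 0.83 to 1.08). Its ligand EREG held 88.8 CPM in control and 56.1 in agrimoniin, with 38.4 in erlotinib and 39.9 in the combination, so all 3 treated libraries were below control. It was the 1 gene called among 4 tested members of the EGFR family and ligands.

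Genes of DNA replication and cell division were more often called higher than lower in the human parts of the agrimoniin library. Over all human genes, 7.15% were called higher and 5.03% lower. Of 28 S phase genes 8 were called higher and 0 lower, with a median log2 ratio of 0.15, and of 48 G2/M genes 8 were higher and 1 lower, with a median of 0.14. Over the alternatives tried the S phase median ran from 0.08 to 0.19 and the G2/M median from 0.06 to 0.23. The replicative helicase, which opens the DNA double strand, had 3 of 7 tested genes called higher and 0 lower, and 10 of 12 measured members above 0. Its median log2 ratio was 0.27, with a range of -0.03 to 0.39 over the alternatives tried. MCM6 held 33.5, 46.9, 45.6 and 35.7 CPM in the control, agrimoniin, erlotinib and combination libraries, a ratio of 1.40 (interval 1.07 to 1.85). MCM4 held 54.9 and 76.7 CPM and MCM3 86.3 and 111 CPM. Among 11 tested DNA polymerase, clamp and clamp loader genes, 5 were higher and 0 lower. POLD2, a subunit of DNA polymerase delta, was at 28.5 CPM under control, 52.6 under agrimoniin, 37.9 under erlotinib and 45.3 under the combination, and PCNA, the sliding clamp, held 93.4, 118, 145 and 125 CPM in that order. Both were lowest in control. Of 17 mitotic cyclins, kinases and checkpoint genes, 5 were higher and 0 lower: CDC20, CDK1, CCNB1, AURKA and CDC27. The lists of this paragraph share genes, so their calls are not separate. MCM6 is also an S phase gene, and CDC20 and CDK1 are also G2/M genes. CDC20, which activates the anaphase-promoting complex, stood at 33.9 CPM against 53.9 with agrimoniin, 46.9 with erlotinib and 33.8 with both drugs. CDK1, the mitotic kinase, held 33.5, 49.6, 63.0 and 52.1 CPM in that order. CKS2, a CDK subunit, was the G2/M gene called lower, at 252 and 176 CPM. MKI67, the proliferation marker, was short of a call, at 136 and 141 CPM and a ratio of 1.03 (interval 0.90 to 1.19).

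Scored per human part, after thinning each to 5000 UMIs, the medians lay close together and the 90th percentiles were further apart. S phase genes took a median 0.14% of UMIs in both libraries, and their 90th percentile was 0.34% in control and 0.42% in agrimoniin. G2/M genes took a median of 0.24% and 0.22%, and their 90th percentile was 0.976% and 1.118%. Among barcodes with at least 75% human UMIs the order of the G2/M medians turned, to 0.27% in control and 0.30% in agrimoniin. One agrimoniin part was too shallow to be thinned.

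Basement membrane and matrix genes were called higher more often than lower in the human parts. Of 17 tested, 8 were called higher and 0 lower, against 7.15% and 5.03% of all human genes. The median log2 ratio was 0.13. Over the alternatives tried that median ran from 0.02 to 0.36. NID1, which links laminin to collagen IV (ENSG00000116962, chr1:235975830-236065162), held 113, 266, 202 and 217 CPM in the control, agrimoniin, erlotinib and combination libraries. It was 2.36 times as high in agrimoniin as in control (interval 2.06 to 2.71), and all 3 treated libraries were above control. COL6A3, a chain of collagen VI (chr2:237324003-237414375), was at 7.85 CPM under control, 55.5 under agrimoniin, 15.6 under erlotinib and 12.9 under the combination, a ratio of 7.08 (interval 4.42 to 12). One barcode gave 21.5% of its agrimoniin UMIs, and the mouse gene Col6a3 went the other way, from 1202 CPM in control to 445 in agrimoniin over the mouse parts. COL18A1, the source of endostatin, held 117 and 169 CPM, COL6A1 36.8 and 55.5 CPM and AGRN, a heparan sulfate proteoglycan, 20.2 and 33.6 CPM. CCN2, a secreted target of YAP-TEAD (listed as CTGF, chr6:131948176-131951373), stood at 152 CPM against 285 with agrimoniin, 151 with erlotinib and 216 with both drugs, a ratio of 1.87 (interval 1.66 to 2.11). Among barcodes whose mouse part was fibroblast-like it was not called, with a log2 ratio of 0.29. CCN2 and CCN1 (655 and 826 CPM) were the 2 called among 9 YAP-TEAD targets, with 0 lower. CTSV, a lysosomal protease, held 21.1 and 60.4 CPM, but 1 barcode gave 32.7% of its agrimoniin UMIs and without the top barcode of each library its log2 ratio was 0.78. HMGA1, a chromatin architecture factor, held 152 and 254 CPM. MEF2C, a transcription factor, held 28.9 and 55.8 CPM, with 22.2 in erlotinib and 51.1 in the combination. The others with the highest ratios were ULK2, an autophagy kinase (15.3 and 32.5 CPM), the small GTPase ARF5 (21.1 and 41.7 CPM), PHGDH, which starts serine synthesis (13.6 and 28.2 CPM), and FANCG of the Fanconi anaemia repair complex (15.7 and 31.4 CPM).

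In lactate and glucose metabolism, enzymes of lactate formation were not called, and a few glycolytic genes were higher. Over all human genes, 7.15% were called higher and 5.03% lower. LDHA, which makes lactate from pyruvate, held 726, 791, 878 and 778 CPM in the control, agrimoniin, erlotinib and combination libraries, and its ratio of 1.09 (interval 1.03 to 1.16) was under the fold of a call. LDHB held 326 and 324 CPM, and SLC16A3, the lactate exporter MCT4, 40.1 and 36.6 CPM. Of 11 lactate handling genes, 2 were called higher and 0 lower, both of them partners that carry lactate transporters to the membrane. These were EMB (140 CPM against 203 with agrimoniin, 159 with erlotinib and 182 with both drugs) and BSG (143, 180, 144 and 163 CPM in that order). Of 15 glycolytic genes 3 were higher and 1 lower, with a median log2 ratio of 0.09. GAPDH held 673 and 923 CPM, GPI 317 and 428 CPM and TPI1 341 and 449 CPM, while PFKFB3, which makes the activator of phosphofructokinase, held 43.8 and 25.5 CPM. The 13 mitochondrially encoded genes were all below 0, with a median log2 ratio of -0.13 and 1 call, MT-ATP8 at 1184 and 809 CPM. The median mitochondrial share of a human part, which is summed from these same genes, was 10.1% in control and 9.65% in agrimoniin. Over the alternatives tried, a lower mitochondrial limit among them, the list's median ran from -0.23 to -0.02. Nuclear genes of oxidative phosphorylation had 3 of 41 called higher and 2 lower, close to the shares over all human genes. Cholesterol synthesis had 0 of 15 called.

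The calls in stress and death lists stand beside 7.15% of all human genes called higher and 5.03% lower. Of 8 pro-apoptotic genes 0 were called either way, with a median log2 ratio of -0.08. Of 6 anti-apoptotic genes 1 was higher, BIRC3, at 83.0 and 119 CPM. Of 16 genes of the integrated stress and unfolded protein responses, 2 were higher and 1 lower. Of 11 NF-kB targets and cytokines, 3 were higher and 1 lower. ICAM1, an adhesion molecule for leukocytes, held 24 and 41.5 CPM, and CCL2, a monocyte chemokine, 31.4 and 55.8 CPM, with 50% and 29.1% of its UMIs from 1 barcode in control and agrimoniin.

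**Figure D2:**
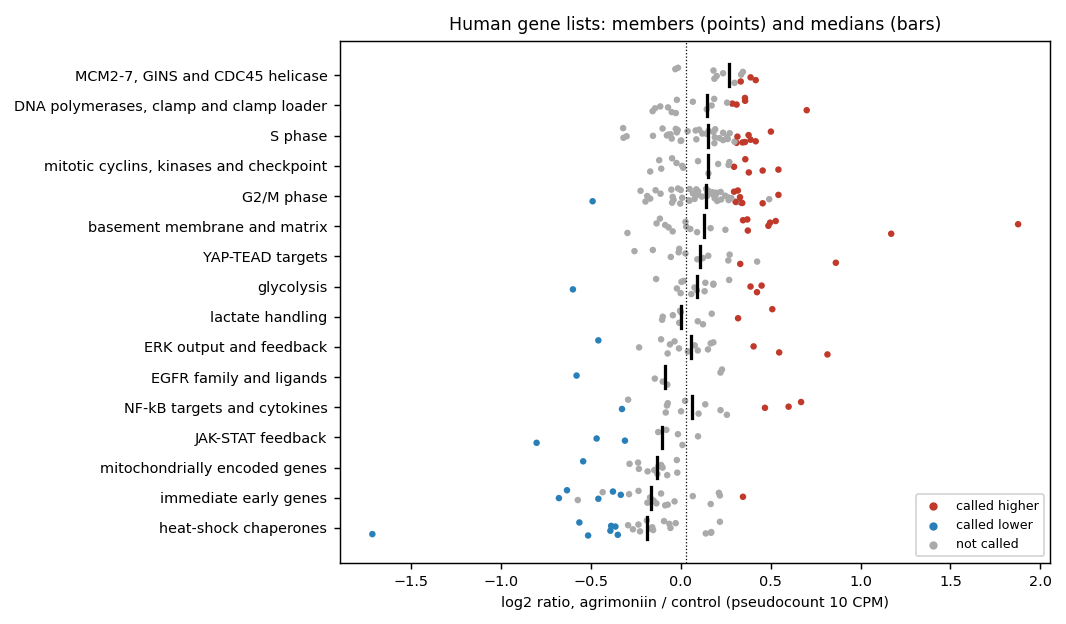
Log2 ratio of agrimoniin to control (pseudocount 10 CPM) for members of selected human gene lists with a mean of at least 10 CPM, coloured by call, with a bar at the median of each list. The chaperone median stands at -0.19, with 7 members called lower, and the helicase median at 0.27, with 3 called higher.

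In the host, the share of mouse parts that were fibroblast-like was 43.1% in control (exact Clopper-Pearson interval 36.1 to 50.2) and 32.7% in agrimoniin (27.4 to 38.3). The macrophage-like share was 36.6% (30.0 to 43.7) and 47.1% (41.3 to 53), and the monocyte-like share 13.4% and 13.5%. Classes were built by clustering the mouse parts of all 4 libraries and naming clusters from marker genes. Both differences are in shares of the parts of 1 library each, so they carry no replicate error. With marker counts in place of clusters the macrophage-like shares were 47.0% and 52.9%. Over all mouse parts, 845 of 6735 genes were called higher (12.5%) and 800 lower (11.9%). Weighting the agrimoniin clusters by the UMIs each held in control, an alternative chosen after seeing the data, left 483 higher (7.2%) and 490 lower (7.31%).

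Host fibroblasts build the matrix of the tumour and can take an inflammatory or a contractile (myofibroblast) form. Among the 87 control and 97 agrimoniin fibroblast-like parts, 641 of 6292 genes were called higher (10.2%) and 695 lower (11%). All 17 inflammatory fibroblast genes tested were called higher, with a median log2 ratio of 1.70 against -0.03 over all genes. Ptx3, a soluble pattern receptor, was at 75.9 CPM under control, 586 under agrimoniin, 211 under erlotinib and 350 under the combination. Lif, a cytokine of the interleukin 6 family, stood at 16.1 CPM against 179 with agrimoniin, 83.4 with erlotinib and 123 with both drugs. Control was the lowest library for both. Ccl2, a monocyte chemokine, held 896 CPM in control and 2725 in agrimoniin, and Has1, which makes hyaluronan, 92.0 and 506 CPM. Il6 held 74.3, 176, 63.9 and 157 CPM in the control, agrimoniin, erlotinib and combination libraries, so the 2 libraries with agrimoniin were the high ones. Complement genes had 9 of 11 called higher, chemokines 12 of 16 higher and 1 lower, and NF-kB and JAK-STAT feedback genes 10 of 13 higher. Class II presentation genes had 5 of 5 higher, but 1 barcode gave 60.3% of the agrimoniin UMIs of H2-Eb1. Genes typical of macrophages were also called higher in the same parts: pro-inflammatory macrophage genes had 7 of 7 called higher (median 1.08) and phagocytosis and lysosome genes 4 of 12 higher and 0 lower (median 0.32). The 8 macrophage markers summed to 90.4 CPM in the fibroblast-like parts of control, with 2 at 0, and to 318 CPM in agrimoniin, with 0 at 0, and 4 were called higher. Their part in the complement, chemokine and class II values was not tested.

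Contractile and matrix genes were mostly called lower in the same parts, where 11% of all genes were called lower and 10.2% higher. Of 12 myofibroblast genes 10 were called lower and 1 higher (median log2 ratio -0.72), of 18 collagens 11 lower and 2 higher (median -0.53), and of 21 other matrix genes 9 lower and 4 higher. Acta2, smooth muscle actin, was at 1196 CPM under control, 655 under agrimoniin, 591 under erlotinib and 1162 under the combination. Postn, a matrix protein of activated fibroblasts, stood at 2204 CPM against 1234 with agrimoniin, 980 with erlotinib and 1774 with both drugs. For both, the combination was closer to control than agrimoniin was. Tnc, tenascin C, held 3615, 1636, 3558 and 1858 CPM in the control, agrimoniin, erlotinib and combination libraries. Col1a1, the main fibrillar collagen chain, was short of a call at 33397 and 36390 CPM, and Col3a1 was called higher at 8198 and 10760 CPM. Sparcl1, an anti-adhesive matrix protein, was at 886 CPM under control, 59.1 under agrimoniin, 456 under erlotinib and 80.9 under the combination, and was 15-fold lower in agrimoniin (interval 10.6 to 21.9). Hypoxia genes had 5 of 10 lower and 3 higher, with Bnip3, a mitophagy receptor, at 381 and 158 CPM and Adm, a vasodilator peptide, at 37.1 and 90.4 CPM. Glycolysis had 8 of 14 lower and 1 higher, Hk2, at 184 and 461 CPM. Heat-shock chaperones had 7 of 13 lower and 0 higher (median -0.42), with Hspa1a at 2769 CPM in control and 1648 in agrimoniin, beside 2820 in erlotinib and 1564 with both drugs.

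Different clusters held most of the fibroblast-like class in the 2 libraries. A cluster led by Grem1 held 72 parts in control and 43 in agrimoniin, and a cluster led by Prg4, Efemp1 and Chl1 held 15 and 54. The class-wide values of genes that lead these clusters can depend on those shares, and how far they do was not tested. Such genes are Prg4 (75.9 and 697 CPM), Mmp3 (22.6 and 264 CPM), Ptx3 and Dpt on the Prg4 side and Col8a1 (2914 and 1531 CPM) and Tagln (1243 and 733 CPM) on the Grem1 side. Within the Grem1 cluster alone, 331 of 6193 genes were called higher (5.34%) and 340 lower (5.49%). There inflammatory genes had 2 of 12 called higher and 1 lower (median log2 ratio 0.30), collagens 1 of 17 higher and 2 lower (-0.16) and myofibroblast genes 2 of 13 higher and 3 lower (-0.06). Acta2 held 1339 and 1246 CPM and Ccl2 710 and 786 CPM, both short of a call. Tnc (3997 and 2088 CPM), Postn (2483 and 1665 CPM) and Sparcl1 (1020 and 118 CPM) were still called lower. Within the Prg4 cluster, 347 of 6194 genes were called higher (5.6%) and 432 lower (6.97%). There inflammatory genes had 7 of 17 higher and 2 lower (0.63), collagens 3 of 18 higher and 0 lower (0.17) and other matrix genes 14 of 21 higher and 1 lower (0.60). Ptx3 held 301 and 1065 CPM and Postn 397 and 847 CPM, the reverse of its direction in the class. Of 13 chaperones tested, 4 were called lower and 0 higher in the Grem1 cluster (median -0.28) and 10 lower and 0 higher in the Prg4 cluster (-0.75). Complement genes had 3 of 9 higher and 1 lower in the Grem1 cluster, and 1 of 12 higher and 1 lower in the Prg4 cluster. In that order, chemokines had 2 of 14 higher and 3 lower, and 7 of 17 higher and 3 lower. NF-kB and JAK-STAT feedback genes had 3 of 13 higher and 0 lower, and 5 of 14 higher and 2 lower. Class II genes had 5 of 5 and 2 of 5 higher, with 0 lower. Glycolysis had 0 of 13 higher and 1 lower, and 1 of 12 higher and 0 lower. The control side of the Prg4 cluster rests on 15 parts.

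**Figure D3:**
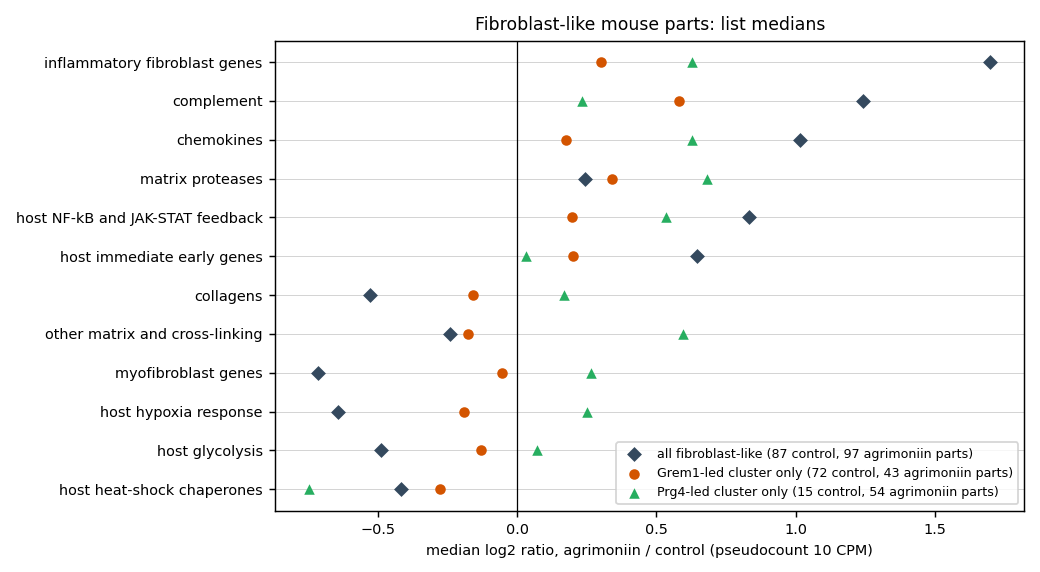
Median log2 ratio of agrimoniin to control (pseudocount 10 CPM) of host gene lists in all fibroblast-like parts and within the clusters led by Grem1 and by Prg4. The collagen median stands at -0.53 over the class, at -0.16 within the Grem1 cluster and at 0.17 within the Prg4 cluster, and the chaperone medians are below 0 in all 3.

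Tumour macrophages clear debris, present antigen and answer stimuli with immediate early genes. The 74 control and 140 agrimoniin macrophage-like parts had 336 of 6140 genes called higher (5.47%) and 350 lower (5.7%). Immediate early genes had 16 of 19 called higher and 0 lower, with a median log2 ratio of 0.82 against -0.01 over all genes. Fosb, a subunit of the AP-1 factor, stood at 2302 CPM against 4561 with agrimoniin, 2342 with erlotinib and 3844 with both drugs. Jun held 1203, 2376, 1990 and 2612 CPM in that order, and Klf2, which restrains inflammatory genes, 458, 936, 483 and 1464 CPM. Fosb and Klf2 were high in the 2 libraries with agrimoniin, and Jun was lowest in control. Egr1 was short of a call, at 930 and 873 CPM. Phagocytosis and lysosome genes had 6 of 16 lower and 0 higher (median -0.25). Ctss, an elastin- and antigen-cleaving protease, held 12530, 8842, 9812 and 7416 CPM in the control, agrimoniin, erlotinib and combination libraries. Lyz2, lysozyme, held 4766 and 3577 CPM, and Mertk, a receptor for dying cells, 89.2 and 41.4 CPM.

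Presentation and activation lists were split in the macrophage-like parts, where 5.47% of all genes were called higher and 5.7% lower. Among 9 class II genes, H2-Eb1 (2032 CPM against 3760 with agrimoniin, 4920 with erlotinib and 3010 with both drugs) and H2-DMa were higher, while H2-Aa (4558 and 3469 CPM), H2-Ab1 (4040 and 2988 CPM) and Ctss were lower. H2-Aa and H2-Ab1 encode the chains of the I-A molecule and H2-Eb1 a chain of I-E, so both I-A chains were lower and the I-E chain higher. Among 13 genes of alternative activation, 5 were higher and 4 lower. Ccl8, a monocyte chemokine, was at 345 CPM under control, 1053 under agrimoniin, 760 under erlotinib and 1842 under the combination, with 37.5% and 21.7% of its UMIs from 1 barcode in control and agrimoniin. Spp1, osteopontin, stood at 751 CPM against 279 with agrimoniin, 488 with erlotinib and 180 with both drugs. Among 11 pro-inflammatory genes, Tnf (199 and 328 CPM) and Nlrp3 (668 and 859 CPM) were higher and 0 lower, and Il1b was short of a call at 1430 and 1692 CPM. Acod1, which makes itaconate, held 106, 23.4, 104 and 113 CPM in the control, agrimoniin, erlotinib and combination libraries, the agrimoniin library being the low one. Dusp4, a phosphatase of ERK, held 138, 28.8, 48.1 and 48.9 CPM in that order. Other genes with the largest ratios rested on few UMIs, such as Pdlim1 (5.76 and 36.0 CPM, interval of the ratio 1.52 to 55.2).

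Macrophage-like parts also fell into clusters of unequal share, led by Ccl3 (31 and 53 parts), Il7r (31 and 48), Ccl8 (9 and 32) and cycling genes (3 and 7). Ccl8 and Wfdc17 lead the third of these, so their class-wide values can depend on its share, and how far they do was not tested. Over all genes 3.93% were called higher and 4.08% lower within the Ccl3 cluster, 4.15% and 4.55% within the Il7r cluster, and 3.06% and 4.16% within the Ccl8 cluster. Immediate early genes had 10, 10 and 14 of 19 called higher within the Ccl3, Il7r and Ccl8 clusters, with 0 lower in each and medians of 0.53, 0.83 and 0.74. Fosb held 3330 and 5814 CPM, 1566 and 4402 CPM, and 2172 and 3289 CPM in the 3 clusters. Lysosome genes had 4 of 16, 8 of 16 and 5 of 15 called lower in the same order, with medians of -0.20, -0.36 and -0.16. Ctss was lower in each, at 13040 and 9835 CPM, 13180 and 9494 CPM, and 11240 and 6855 CPM. Acod1 and Dusp4 had log2 ratios of 0.30 and 1.70 in the Ccl8 cluster, opposite to the class, on 9 control parts. Pro-inflammatory genes had 1 of 10 higher and 4 lower in that cluster (median -0.79) and chemokines 2 of 14 higher and 8 lower (-0.92), whereas the pro-inflammatory medians of the Ccl3 and Il7r clusters were 0.19 and 0.17. The 5 mast cell markers were all at 0 in the macrophage-like parts of control and summed to 1579 CPM in agrimoniin, nearly all of it in the Il7r cluster (0 and 4367 CPM). With a finer clustering, which set a mast cell-like cluster apart, they summed to 0 and 5.86 CPM in the macrophage-like class, and the immediate early and lysosome medians there were 0.80 and -0.27.

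**Figure D4:**
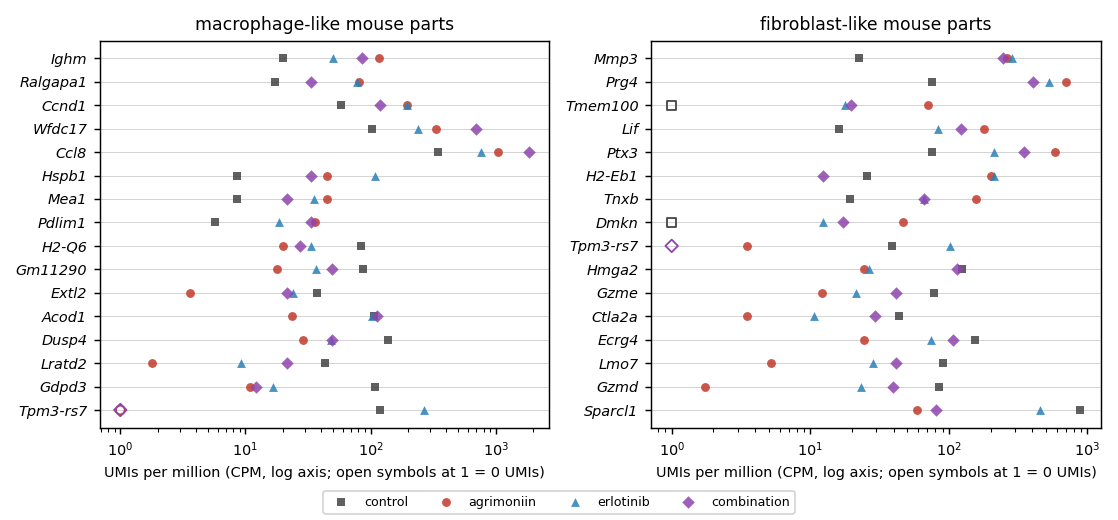
Levels (CPM, log axis) of the 8 highest and 8 lowest genes by ratio in macrophage-like and fibroblast-like mouse parts, 1 symbol per library, with open symbols at 1 for libraries with 0 UMIs. Sparcl1 in fibroblast-like parts stands at 886 CPM in control and 59.1 CPM in agrimoniin, and Acod1 in macrophage-like parts at 106 and 23.4 CPM.

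Genes with the same symbol in human and mouse were set side by side, as sums over the kept parts of each species in the same libraries. Parts were filtered separately for each species and the host classes are subsets, so the barcodes summed are not all the same. Of 19 immediate early pairs, 15 human members were below 0 with 4 called lower and 1 higher (median log2 ratio -0.16). All 19 mouse members were above 0 over the mouse parts, with 17 called higher (median 0.59), against 12.5% of all mouse genes. ZFP36 held 7688 and 5913 CPM in the human parts, and Zfp36 held 1967 and 2806 CPM in the mouse parts. IER3 held 262 and 188 CPM, and Ier3 119 and 189 CPM. The difference between the species was not tested. With the agrimoniin clusters weighted as in control, 10 of 19 mouse members were still called higher and 0 lower. Within the fibroblast-like cluster led by Grem1, 7 of 19 were called higher and 0 lower (median 0.20). Within the cluster led by Prg4, 5 of 19 were called higher and 1 lower (median 0.03). Over all genes, 5.34% and 5.6% were called higher in these clusters, in that order. Of 13 chaperone pairs, 4 human and 5 mouse members were called lower and 0 higher in either species. In macrophage-like parts 3 of these mouse members were higher and 0 lower, and in fibroblast-like parts 7 were lower and 0 higher. Of 14 glycolysis pairs, 2 human members were higher and 1 lower, while 1 mouse member was higher and 4 lower.

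**Figure D5:**
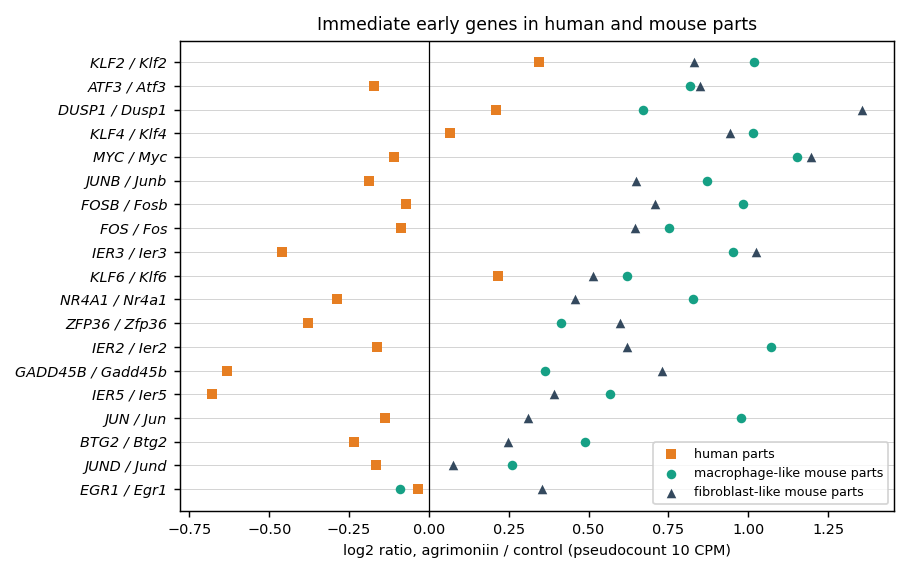
Log2 ratio of agrimoniin to control (pseudocount 10 CPM) for 19 immediate early genes with the same symbol in both species, in human parts, macrophage-like mouse parts and fibroblast-like mouse parts. The human points lie mostly left of 0 (15 of 19). Right of 0 lie 18 of the 19 macrophage-like points and all 19 fibroblast-like points.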

How the data were processed

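The 4 single-cell RNA libraries of the series were used, 2 of them (control and agrimoniin) for the comparison and all 4 for clustering. The labels' protocols name a collagenase II digest and a target of 8000 cells per load. Per the submitters' processing notes, Cell Ranger was run with hg38 and mm10 (version not given). The authors deposited raw UMI counts, whole numbers for each barcode, for 36601 human and 32285 mouse features.

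UMIs of the kept parts were summed per library and divided by their total. Ratios carry exact 95% intervals conditional on the sum of both counts. With 1 library a group no test across genes was run. The depth of each sum, from 347487 UMIs (macrophage-like parts of control) to 3690705 (human parts of agrimoniin) and down to 44666 within single clusters (Ccl8 cluster of control), sets the width of its intervals. Gene lists were described over members with a mean of at least 10 CPM. Mouse parts were clustered with scanpy 1.11.5 and leidenalg 0.10.2 (2000 variable genes, 20 components, 15 neighbours, resolution 0.5), and a cluster was named from at least 3 markers. No doublet caller was run, since each barcode held both species. Other steps used Python 3.11.15, numpy 2.4.6, scipy 1.17.1, pandas 2.3.3 and matplotlib 3.10.9. The call rule was tried on simulated counts with counting error only, which leave out variation between barcodes and between libraries.

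Genes named were the 12 highest and 12 lowest human ratios (10 and 10 over all mouse parts, 8 and 8 per class) with a mean of at least 20 CPM and detected in 10% of parts or more, up to 6 members per list with the largest ratios, and EGFR, LDHA, LDHB, MKI67, DUSP6 and HSPA6. Other list members were named after their values were seen. The members and lists were chosen with earlier results of these data known. One list of target genes is not reported here. Alternatives changed the pseudocount, level minimum, scaling, weighting of barcodes, fold, mitochondrial limit, barcodes used, clustering and class rule.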

Additional observations from a re-analysis of the deposited data

Results flagged for a closer look

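Among 181 genes called in both host classes, 87 were higher in both, 49 lower in both and 45 opposite. Of the opposite genes, 4 lay past 2-fold in both classes. Of all genes tested, 5.47% were called higher and 5.7% lower in macrophage-like parts, and 10.2% and 11% in fibroblast-like parts. The differences between the classes were not tested. Dctn3, a dynactin subunit, had a log2 ratio of 1.22 in macrophage-like parts (14.4 and 46.8 CPM in control and agrimoniin) and -0.88 in fibroblast-like parts (30.7 and 12.2 CPM). Pnpla2, the first enzyme of fat breakdown, had 1.06 (25.9 and 64.8 CPM) and -1.02 (80.7 and 34.8 CPM). Rcan1, an inhibitor of calcineurin, had -1.04 (118 and 52.2 CPM) and 1.24 (66.2 and 170 CPM). Ugdh, which makes the sugar precursor of hyaluronan, had -1.08 (72.0 and 28.8 CPM) and 1.42 (182 and 504 CPM). The intervals of the ratio of Dctn3 nearly reached 1 in fibroblast-like parts (0.141 to 0.985), while those of Ugdh did not (2.22 to 3.46).

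Genes set side by side in both species made 19 immediate early, 13 chaperone, 14 glycolysis and 9 hypoxia pairs. Of these, 5 were called in opposite directions in human and mouse parts, a difference that was not tested. Over all genes, 7.15% were called higher and 5.03% lower in human parts, and 12.5% and 11.9% in mouse parts. GADD45B had a log2 ratio of -0.63 in human parts and Gadd45b 0.42 in mouse parts. The ratios were -0.46 and 0.62 for IER3 and Ier3, -0.68 and 0.40 for IER5 and Ier5, and -0.38 and 0.51 for ZFP36 and Zfp36. P4HA2 and P4ha2, which hydroxylate collagen prolines, went the other way at 0.29 and -0.90, and the interval of the human ratio (1.00 to 1.63) began at about 1.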

How the results depend on the processing

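No paired analysis was possible because each group is 1 library. In the human parts, a level minimum of 50 CPM left 246 genes called higher and 209 lower, no minimum gave 628 lower, and a 1.5-fold limit left 117 and 71. In the mouse parts, 523 and 518 genes passed 1.5-fold, and 483 and 490 were called with agrimoniin clusters weighted as in control. The Ccl8 cluster alone gave 179 genes higher in macrophages, and in fibroblasts the Grem1 cluster gave 331 and 340 and the Prg4 cluster 347 and 432. By construction these settings change the genes tested, the fold or the parts used. The human heat-shock median stayed between -0.24 and -0.14 and the immediate early median between -0.19 and -0.11 over all 10 alternatives. Reversed log2 ratios follow, and the cause was not tested. CROCC was at 0.027 with at least 75% human UMIs, and JAK-STAT feedback at 0.10 where the mouse part was fibroblast-like. With clusters weighted as in control, lysosome genes of all mouse parts were at -0.18 and matrix proteases at 0.12. In macrophages, NRF2 targets were at -0.13 (classes from marker counts) and -0.11 (Ccl3 cluster). Alternative activation was at -0.25, -0.30 and -0.38 in the Ccl3, Il7r and Ccl8 clusters, and myofibroblast genes at 0.57 (Il7r) and 1.70 (Ccl8). The value of 1.70 rests on 5 measured genes, and 11 of the 13 members had 0 UMIs in control. Of these genes 0 were called higher and 1 lower, and the list summed to 157 CPM in control and 142 in agrimoniin. In the Ccl8 cluster inflammatory fibroblast genes were at -0.92, NF-kB and JAK-STAT feedback at -0.25, Acod1 at 0.30 and Dusp4 at 1.70. In fibroblasts, interferon response was at -0.16 and cell cycle at -0.35 in the Grem1 cluster. In the Prg4 cluster MHC class I was at -0.35, collagens at 0.17, other matrix at 0.60, myofibroblast genes at 0.26, hypoxia at 0.25 and Ecrg4 at 1.40. Classes from marker counts put the macrophage-like share of control at 47.0%, the monocyte-like shares of control and agrimoniin at 2.48% and 4.71% and the pericyte-like shares at 1.98% and 0%, where a count of 0 in 297 parts, with a floor of 3 parts, allows up to 1.01%. At a minimum of 2590 mouse UMIs, macrophage-like parts made up 28.2% and 39.3% and monocyte-like parts 22.3% and 19.3%. Among barcodes with at least 75% human UMIs the G2/M medians of control and agrimoniin were 0.27% and 0.30%. Counting error limits genes near 20 CPM most.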

Other observations

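Tpm3-rs7, a retrogene with near-identical copies of Tpm3 elsewhere, held 66.1, 2.24, 190 and 0 CPM over the mouse parts of the control, agrimoniin, erlotinib and combination libraries. It held 118, 0, 270 and 0 CPM in macrophage-like parts and 38.7, 3.48, 101 and 0 CPM in fibroblast-like parts, where the agrimoniin value rests on 2 UMIs. In macrophage-like parts it was at least 21.9-fold lower in agrimoniin than in control, with a floor of 3 UMIs in the agrimoniin sum. Gbp2b, an interferon-induced GTPase, held 62.6, 12.7, 129 and 11.2 CPM in the same order. It was low in the 2 libraries with agrimoniin also in macrophage-like parts (86.3, 23.4, 150 and 18.3 CPM) and fibroblast-like parts (38.7, 5.21, 94.1 and 4.90 CPM). The cause was not tested. Gdpd3, a lysophospholipase, held 46.9 CPM in control against 8.22, 7.95 and 6.75 CPM in the treated libraries.

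Tmem100, a membrane protein of vessels and mesenchyme, had 0 UMIs in the fibroblast-like parts of control and 41 in agrimoniin (71.3 CPM), at least 14.7-fold higher with a floor of 3 UMIs in the control sum. Dmkn, a secreted epithelial protein, had 0 and 27 UMIs there, at least 9.69-fold higher. All 41 UMIs of Tmem100 and 26 of Dmkn came from the cluster led by Prg4, which held 15 control and 54 agrimoniin parts. Both folds can depend on its share, and how far they do was not tested. Within that cluster the bounds were 3.74-fold and 2.37-fold. Mast cell markers summed to 0.869 CPM in the mouse parts of control, with 4 of 5 at 0, and to 663 CPM in agrimoniin, with 0 at 0, beside 126 CPM in erlotinib and 4.50 CPM in the combination. By marker counts, 2 of 297 agrimoniin parts were mast cell-like (0.673%, exact Clopper-Pearson interval 0.0817 to 2.41) and 0 of 202 control parts. A finer clustering put 9 agrimoniin (3.03%), 3 control (1.49%), 7 erlotinib and 6 combination parts into a cluster led by Cpa3, Mcpt4 and Cma1. Given the sums above, its control and combination parts held almost none of the mast cell marker UMIs. Its shares are therefore not shares of mast cells. B cell markers summed to 11.3 CPM in control and 65.0 CPM in agrimoniin, and Ighm, the heavy chain of IgM, held 20.1 and 117 CPM in macrophage-like parts.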
